A study of Mus musculus with 5 samples.

Results

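The genes described here are 49 members of the TGF-beta and BMP signalling pathways, listed by symbol, of 21951 protein-coding genes among 55450 annotated genes. They are 32 ligands, 7 secreted antagonists, 3 receptors and 7 feedback targets. H3K27me3, trimethylated lysine on the tail of histone H3, was mapped by ChIP-seq, in which an antibody recovers the chromatin fragments that carry the mark. The samples were wild-type mouse dermal fibroblasts at embryonic stages labelled E14 and E17, with 2 libraries per stage. No treatment or engineered allele is named for these samples, and the study's own staging is E14.5 and E18.5. An input library without antibody is also labelled and was not analysed here. The labels name culture in DMEM with serum, sonicated chromatin and an Ion Torrent library kit, whereas AmnioMAX medium, enzymatic digestion and Illumina sequencing stand in the study's methods. The cells were dermal preparations grown in culture, so they stand for dermis only as far as culture preserves its state.

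Most ligands of this family are secreted dimers that bring together type I and type II serine/threonine kinase receptors. The activated type I receptor phosphorylates Smad proteins that enter the nucleus. Secreted antagonists such as Noggin and Chordin bind BMPs outside the cell, and Smad6, Smad7 and the Id genes are switched on by the signal itself. H3K27me3 is deposited by Polycomb repressive complex 2 and is found at developmental genes that are silent in a given cell type. In skin, BMP and TGF-beta signals between dermis and epidermis take part in placing and cycling hair follicles and in making extracellular matrix.

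Each library came as its own list of peaks, stretches of the genome where recovered fragments pile up over the local background. The E14 lists held 21546 and 16574 peaks covering 52.8 and 32.1 Mb, and the E17 lists held 10429 and 7107 peaks covering 20.0 and 14.3 Mb. Read counts are missing from the lists, so depth cannot be taken from them. The study's methods describe reducing wild-type and knockout samples of the later stage to the read depth of the others. That pairing belongs to a separate comparison in the study, and it is not clear whether the E17 libraries used here were included. A gene without a peak is one whose signal stayed under the threshold of that list. A gene was scored in each library by the peaks within 3000 bp of any of its annotated start sites. The scores were presence, the length in bp of that window covered by peaks, and the highest percentile, meaning the percent of the list's peaks whose fold enrichment was at or below that of the gene's strongest peak. A gene was called marked at a stage when both libraries of that stage had a peak in the window. Series of 4 values are given in the order E14 replicate 1, E14 replicate 2, E17 replicate 1 and E17 replicate 2. In a bulk sample, fewer cells that carry the mark and less mark in each cell cannot be told apart.

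Of the 49 pathway genes, 21 (42.9%) were marked at E14, beside 19.5% of all protein-coding genes. At E17, 15 (30.6%) were marked, beside 12.2%. The same 15 genes had a peak in all 4 libraries, beside 12.0% of protein-coding genes. Another 6 (12.2%) were marked at E14 with no peak in either E17 library, beside 4.62%. No pathway gene was marked at E17 alone. That pattern was rare over all protein-coding genes too, as 2683 had a peak in both E17 libraries and 2645 in all 4. Its absence thus does not set the pathway genes apart. These shares describe a set of genes that was chosen with earlier results of these data known. The remaining genes were Bmp5 and Bmpr1b, each with a peak in E14 replicate 1 only, and 26 genes (53.1%) with no peak in any library, beside 74.1% of protein-coding genes. Thus 6 of the 21 genes marked at E14 (28.6%) had no peak at E17, close to the 23.8% of all protein-coding genes marked at E14. The covered length was shorter in both E17 libraries than in both E14 libraries at 19 of the 23 pathway genes with any peak (82.6%), beside 63.3% of all such genes, and at 13 of the 15 with a peak in all 4 libraries (86.7%), beside 77.8%. An exact two-sided permutation test of 2 libraries against 2 gives no p below 0.333, so by this test no difference between stages could pass 0.05.

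The stage difference was read against the length of the lists. When each list was shortened to the 7107 peaks of highest −log10 q-value, the number marked at E14 with no E17 peak fell from 6 to 1, beside 1.63% of protein-coding genes, and the gene was Lefty1. The lists of equal number still covered 34.0, 23.8, 17.7 and 14.3 Mb. In these lists 14 of 20 pathway genes with a peak (70.0%) were shorter in both E17 libraries, beside 60.0%. Shortening each list to the same covered length of 14.3 Mb kept 1545, 2413, 4110 and 7107 peaks, so it removed most of the E14 peaks and none of E17 replicate 2. In these lists no pathway gene was marked at E14 only, beside 0.109% of protein-coding genes, and Bmp8a and Gdf10 then had a peak in both E17 libraries and in neither E14 library. The share of protein-coding genes with that last pattern was not taken. There 10 genes were marked at E14, beside 5.67%, and 8 of 16 (50.0%) were shorter at E17, beside 27.2%. A stricter −log10 q-value of at least 5 left 8 genes marked at E17 and 3 marked at E14 only, beside 4.44% and 4.36% of protein-coding genes. With a window of 1000 bp, 12 of 23 genes (52.2%) were shorter at E17, close to the 54.6% of all such genes. Covered length cannot exceed this narrow window, so a gene covered throughout it in every library could not be called shorter. The number of BMP-type ligands marked at both stages was 10 in the full lists, 10 in the lists of equal number, 7 in the lists of equal length and 6 at the stricter q-value. The shares of protein-coding genes with a peak in all 4 libraries were 12.0%, 11.1%, 5.46% and 4.41%.

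Of the 32 ligands, 17 were marked at E14 and 12 at E17, beside 19.5% and 12.2% of protein-coding genes. The BMP-type ligands made up 11 of the 21 genes marked at E14. Of 14 such genes, 11 were marked at E14 and 10 of these also at E17, beside 19.5% and 12.2% of protein-coding genes. The 10 were Bmp2, Bmp3, Bmp4, Bmp6, Bmp7, Bmp8a, Bmp8b, Gdf6, Gdf7 and Gdf10. Their median covered length was 5817, 4631, 3531.5 and 3576 bp in the 4 libraries. Gdf5, a ligand needed for joint formation, was marked at E14 only, Bmp5 had a single peak, and the endothelial ligands Bmp10 and Gdf2 had none.

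Gdf7, a roof plate ligand of the developing spinal cord, was covered along nearly the whole window in every library. Peaks covered 6001, 6001, 6001 and 5220 bp of its 6001 bp window, and the highest percentiles were 99.3, 98.4, 97.9 and 98.4. In E14 replicate 1 the peak ran over chr12:8296480-8306664, and in E17 replicate 2 it was broken by a gap of 781 bp. The stages overlapped by this length, but it could not exceed the window, which 3 libraries filled. The widest peak, which is not cut at the window, was 10185, 9963, 9787 and 7389 bp. Gdf6, which takes part in joint and skull formation, was covered over 3006, 2920, 2930 and 2875 bp, and its mean at E17 was 98.0% of that at E14. The E17 values of Gdf6 fell on both sides of the lower E14 value, so the stages overlapped here too. Its peaks began close to the gene start and ran into the gene, since the nearest peak base lay 0, 81, 71 and 126 bp from the start site. The part of the peak beyond the window differed more, because the peak was 16040 bp wide in E14 replicate 1 and 7846, 7761 and 7733 bp wide in the other libraries.

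Bmp4, a ligand of the dermal condensate and papilla of hair follicles, was covered over 9366, 7957, 7465 and 6842 bp, with percentiles of 97.3, 96.0, 96.3 and 95.0. Both E17 values lay below both E14 values, and the mean at E17 was 82.6% of that at E14. Bmp7, which is needed for kidney and eye development, was covered over 6230, 5282, 4416 and 4106 bp, and its gene start lay inside a peak in every library except E17 replicate 2, where a gap of 1556 bp held it. Bmp6, a regulator of iron balance, was covered over 4410, 3392, 3093 and 2709 bp and had percentiles of 98.2, 99.1, 97.1 and 91.1. The stages did not overlap at Bmp7 or Bmp6, with E17 at 74.0% and 74.4% of E14.

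Bmp2, an inducer of bone and cartilage, was covered over 5671, 4521, 3132 and 4253 bp. A single peak spanned its gene start in both E14 libraries, while in E17 replicate 1 a gap of 1011 bp over chr2:133551334-133552344 contained the start. In E17 replicate 2 the start was inside a peak again, so this gap was seen in 1 of the 2 E17 libraries. Bmp3, a BMP that opposes bone formation, was covered over 5118, 4534, 3931 and 3046 bp, and its percentile was 94.8, 94.5 and 91.6 in the first 3 libraries and 58.8 in E17 replicate 2. Both genes had shorter lengths in each E17 library than in each E14 library, at 72.5% and 72.3% of E14.

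Bmp8a and Bmp8b, which act in the germ line, both lie on chromosome 4. Bmp8b was covered over 6584, 5619, 5009 and 4165 bp in 2 peaks per library, 75.2% at E17 relative to E14, and a start site of Oxct2b lies inside the same peaks, so this coverage is not of Bmp8b alone. Bmp8a was covered over 3690, 3607, 1028 and 2139 bp, 43.4% at E17 relative to E14, and this share was 28.2% without E17 replicate 2 and 58.6% without E17 replicate 1. Its percentile was 89.8, 83.6 and 83.6 in the first 3 libraries and 15.0 in E17 replicate 2, so its peak there was among the weakest of that list. Gdf10, a BMP3-like ligand, was covered over 5963, 4728, 2371 and 1542 bp, 36.6% at E17 relative to E14. A single E14 peak spanned the gene start, whereas no E17 peak held it, the nearest peak base lying 162 and 205 bp away. In lists of equal covered length, which removed most E14 peaks, Bmp8a and Gdf10 each had a peak in both E17 libraries and in neither E14 library. No share of protein-coding genes was taken for this pattern, so it is not read as particular to these genes.

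**Figure D1:**
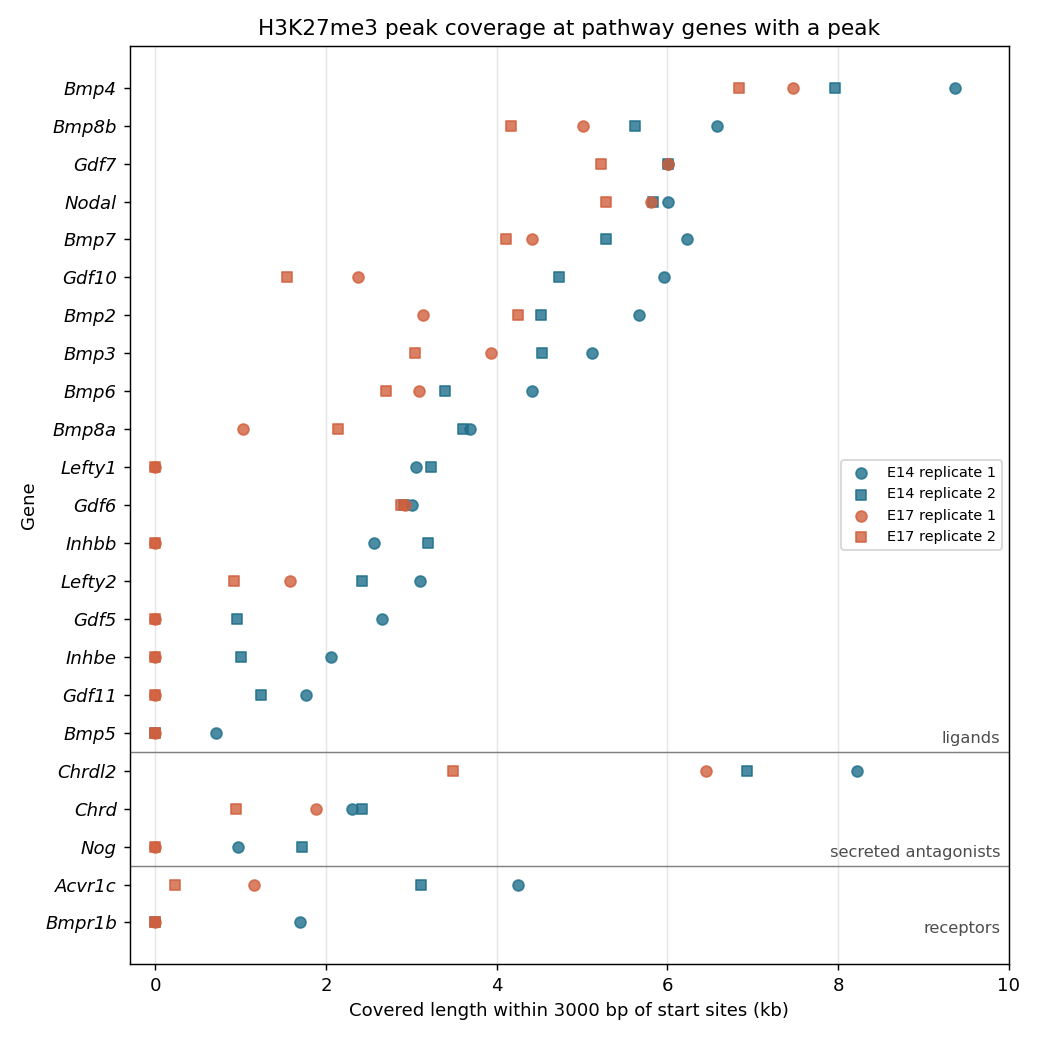
Length covered by H3K27me3 peaks within 3000 bp of the start sites (x axis, kb) of the 23 pathway genes with a peak in any library (y axis, grouped by role and ordered by the E14 mean), with circles and squares for replicates 1 and 2, blue for E14 and orange for E17. Both E17 points lie to the left of both E14 points at 19 of the 23 genes. The exceptions are Gdf6 and Gdf7, whose stages overlap within the window, and Bmp5 and Bmpr1b, with a peak in 1 library. Gdf7 fills its window in 3 libraries.

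The Nodal and Lefty genes, which set the left-right axis, were divided. Nodal was covered over 6001, 5836, 5812 and 5278 bp, with percentiles of 98.7, 97.6, 97.1 and 87.5, and its mean at E17 was 93.7% of that at E14. This length could not exceed the window of 6001 bp, so the share is limited by the window. The widest peak at Nodal, which is not cut at the window, was 8106, 7414, 6075 and 5278 bp. Lefty2, a secreted inhibitor of Nodal, was covered over 3106, 2424, 1581 and 920 bp, 45.2% at E17 relative to E14. Its annotated 5′ end was inside the peak in both E14 libraries and outside it in both E17 libraries, where the remaining peak lay within the gene. Lefty2 has 2 annotated start sites, and the nearest peak lay 0 bp from a start site in both E17 libraries. The other start site was thus still inside a peak at E17. Lefty1, also on chromosome 1, was covered over 3059 and 3227 bp at E14 and had no peak at E17, the nearest E17 peaks, those at Lefty2, lying 39898 and 39937 bp away. The 2 E14 peaks at the Lefty1 start, chr1:180933603-180936661 and chr1:180933708-180936184, stood at percentiles of 90.0 and 75.8. The co-ligands Gdf1 and Gdf3 had no peak in any library.

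Other ligands were marked at E14 or not at all. Inhbb, the activin B subunit gene, was covered over 2562 and 3192 bp at E14, in 2 peaks per library that flanked the gene start with a gap of 2227 and 1990 bp between them. Its nearest E17 peaks were 583088 and 583038 bp away. Inhbe, an activin subunit gene of the liver, was covered over 2061 and 1002 bp at E14 at low percentiles of 44.4 and 28.8. Gdf5 was covered over 2660 and 958 bp at percentiles of 48.1 and 60.2. Gdf11, a regulator of vertebral identity along the body axis, was covered over 1764 and 1236 bp upstream of its start at percentiles of 59.5 and 92.3. The peak at 92.3, chr10:128894177-128897335, lay mostly outside the window, and the other peak of that library stood at 13.1. An E17 peak lay 4087 and 4114 bp from the Gdf11 start, so a window of 5000 bp placed the gene among those marked at both stages. Gdf11 was no longer marked at E14 only under 5 of 15 alternatives, a window of 1000 bp among them.

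None of the 3 TGF-beta genes had a peak in any library, as for 74.1% of protein-coding genes. The nearest peak to Tgfb1, a driver of matrix production by fibroblasts, lay between 7923 and 11325 bp away, those nearest to Tgfb2 lay between 101803 and 127153 bp away, and those nearest to Tgfb3 between 129300 and 131690 bp. The activin A subunit gene Inhba and the inhibin subunit gene Inha had none, nor had Mstn, Gdf9 or Gdf15, ligands of muscle, oocytes and stressed tissue. Amh and Inhbc had none either, and they were the genes just outside the window, with a peak 4074 bp from the Amh start in E14 replicate 1 and 3584 bp from the Inhbc start in E14 replicate 2.

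Among the 7 secreted antagonists, 3 were marked at E14 and 2 at E17, beside 19.5% and 12.2% of protein-coding genes, and so few genes do not set the group apart. Chrdl2, a chordin-like BMP antagonist, was covered over 8220, 6937, 6447 and 3484 bp, with percentiles of 95.6, 94.7, 94.6 and 90.8. Its stages did not overlap, and the mean at E17 was 65.5% of that at E14, with the lower E17 value well below the other. Chrd, which encodes Chordin, was covered over 2307, 2427, 1880 and 947 bp, 59.7% at E17 relative to E14. A start site of Thpo lies inside the Chrd peaks. Nog, which encodes Noggin, was covered over 968 and 1722 bp at E14 and had no peak at E17, and its percentiles were 24.3 and 71.3. Nog was no longer marked at E14 only under 5 of 15 alternatives. A −log10 q-value of at least 3 and peaks of at least 1000 bp were among them. Chrd was no longer marked at both stages under 3 of 15. The antagonists Grem1, Fst, Fstl3 and Bmper were without peaks in their windows. Counting Lefty1 and Lefty2 as antagonists raised the number marked at E14 from 3 to 5.

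Of the 3 receptor genes, Acvr1c alone was marked, which is too few to read against the share of all genes. It encodes ALK7, a type I receptor for Nodal and activin B, and was covered over 4247, 3118, 1162 and 236 bp, 19.0% at E17 relative to E14. The share was 31.6% without E17 replicate 2 and 6.41% without E17 replicate 1, so its size rests on single libraries, although both E17 values lay below both E14 values. Its gene start was inside a peak in both E14 libraries and in neither E17 library. The percentiles were 86.7 and 87.1 at E14 and 27.5 and 50.5 at E17, and Acvr1c was no longer marked at both stages under 6 of 15 alternatives, lists of equal number and at least 500 bp covered among them. Bmpr1b, a type I BMP receptor of limb cartilage, was covered over 1694 bp in E14 replicate 1 and not in the other libraries. The pseudoreceptor gene Bambi had no peak, the nearest being between 7886 and 8875 bp away.

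The feedback targets Smad6, Smad7, Smad9, Id1, Id2, Id3 and Id4 all lacked a peak in their windows in each of the 4 libraries. As 74.1% of protein-coding genes had no peak in any library, 0 of 7 does not set these genes apart. Smad6 and Smad7 block the receptor and Smad steps, Smad9 is itself a BMP-responsive Smad, and the Id proteins hold back basic helix-loop-helix factors. The nearest peak to Id1 lay between 11935 and 107869 bp away, that to Id3 between 61011 and 61342 bp, and that to Smad6 between 152121 and 362262 bp. The same result held with windows of 1000 and 5000 bp.

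**Figure D2:**
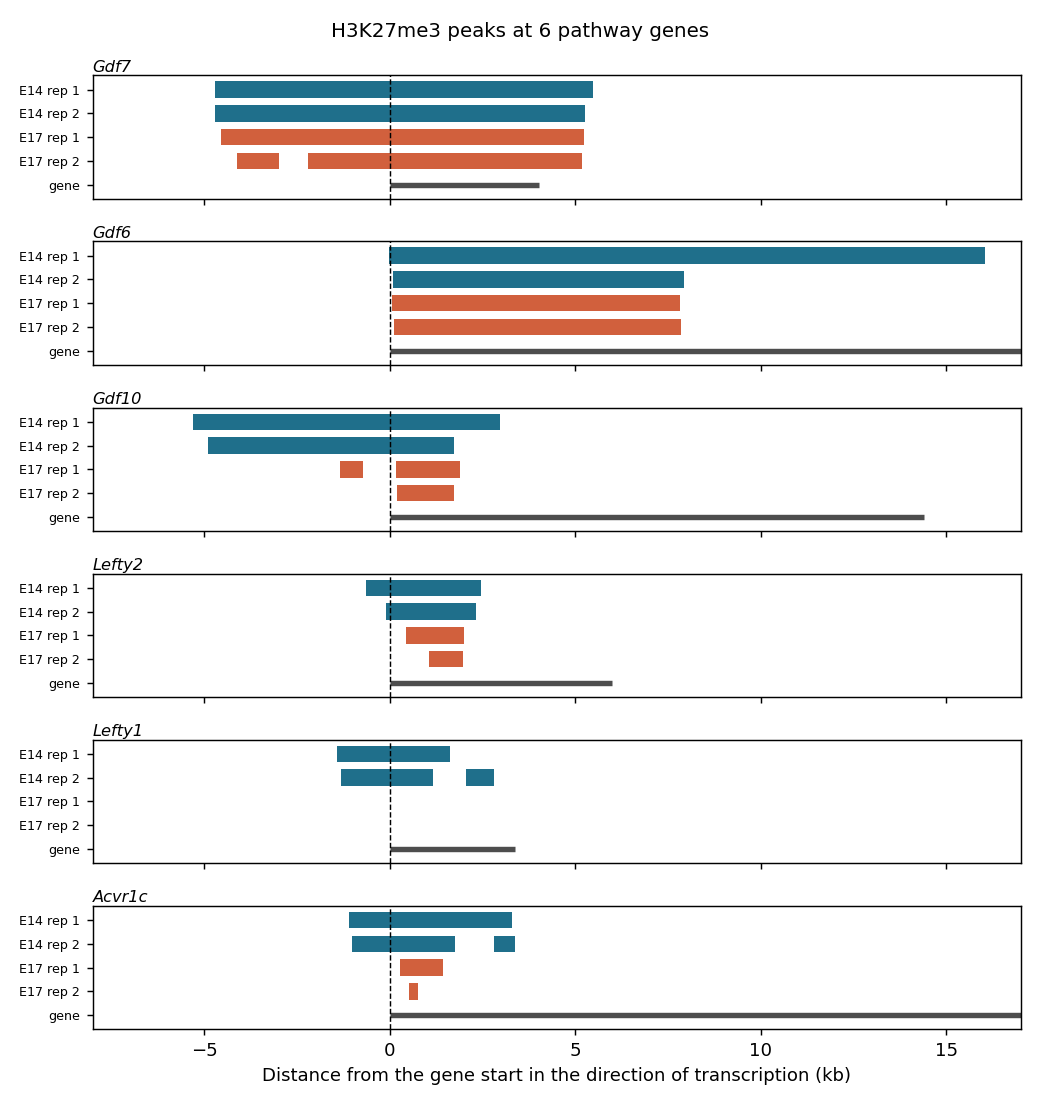
Peaks of each library (bars, blue for E14 and orange for E17, rep for replicate) around 6 pathway genes, drawn against the distance from the gene start in the direction of transcription (x axis, kb), with the annotated gene as a dark line cut at the right edge where it is longer. Gdf7 is spanned in all 4 libraries, and Lefty1 has peaks at E14 only. The annotated 5′ end of Gdf10, Lefty2 and Acvr1c lies inside a peak at E14 and outside at E17.

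The position of the peaks relative to the gene start was compared over the 15 genes marked in all 4 libraries. The start, taken as the annotated 5′ end of the gene, was inside a peak at 14, 13, 8 and 9 of the 15 genes. Over the 2645 protein-coding genes with the same pattern, the shares were 72.7%, 66.2%, 55.7% and 48.4%. At the 6 genes marked at E14 only, the start was inside a peak at 2 genes in each E14 library, Lefty1 and Inhbe, beside 24.9% and 19.3% of the 1015 genes with that pattern. The bases covered at E17 were almost all covered at E14 too. The share of a gene's E17 covered bases that were covered in both E14 libraries had a median of 100% in each E17 library, with a lowest value of 93.0% at Gdf10 in replicate 1 and 90.7% at Bmp7 in replicate 2. The median over all 2645 genes was also 100% in each library.

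By the mean of the 2 E14 libraries, the genes that were without an E17 peak had the weaker peaks at E14. Within single libraries this did not hold for every gene. Gdf11 at 92.3 stood above Lefty2 at 90.9 in E14 replicate 2, and Lefty1 at 90.0 above Bmp8a at 89.8 in E14 replicate 1. The mean of the 2 E14 percentiles had a median of 95.1 over the 15 genes marked in all libraries (range 86.7 to 98.9) and of 56.9 over the 6 marked at E14 only (range 36.6 to 82.9). Over all protein-coding genes the same medians were 91.8 and 55.4. Of the pathway genes marked at E14, all 5 with a mean percentile up to 80 had no E17 peak, beside 54.2% of protein-coding genes in that range, and 0 of 12 above 90 had none, beside 1.60%. Between 80 and 90 lay 4 pathway genes, Lefty1 at 82.9, Bmp8a at 86.7, Acvr1c at 86.9 and Gdf10 at 88.2, and Lefty1 was the one with no E17 peak, beside 8.39% of the genes in that range. The covered length at E17 relative to E14 was 43.4%, 19.0% and 36.6% at the 3 others and 45.2% at Lefty2, which lay above 90, where the median of the 15 was 72.5% and that over all 2645 genes was 62.2%. The order of these 4 genes changed when either E17 library was left out, and without E17 replicate 1 the share at Bmp8a, 58.6%, lay above those at Chrd and Chrdl2. In lists of equal covered length Bmp8a and Gdf10 were marked at E17 only, a pattern for which no share of all genes was taken.

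**Figure D3:**
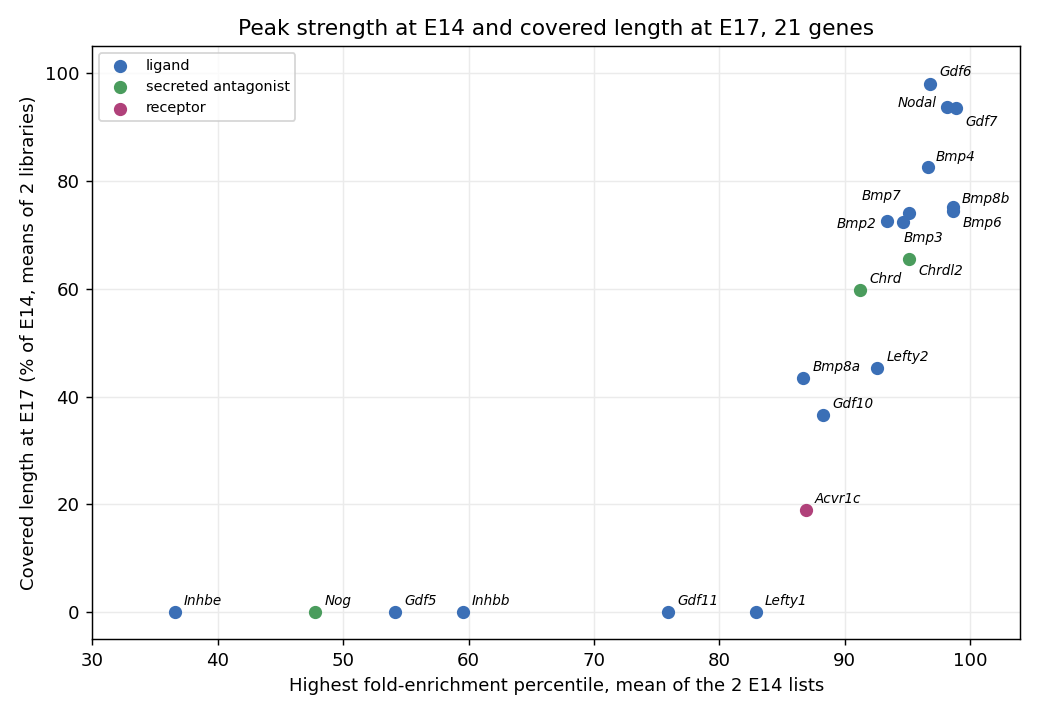
Mean of the highest fold-enrichment percentiles in the 2 E14 lists (x axis) against the mean covered length at E17 as a percent of that at E14 (y axis) for the 21 pathway genes marked at E14, coloured by role. The 6 genes at 0% lie between 36.6 and 82.9 on the x axis, and the 15 genes with a peak in all 4 libraries lie between 86.7 and 98.9. Covered length is cut at the window, which peaks filled or nearly filled at Gdf7 and Nodal.

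Promoter sequences of RefSeq, on GRCm38.p6, are shown for a gene of each pattern, with every CG in capitals because H3K27me3 domains are known to lie over CG-rich promoters. Each is the 250 bases before the start in the RefSeq table, read in the direction of transcription. The Gdf7 promoter, chr12:8301955-8302204 on the minus strand, was covered over all 250 bases in all 4 libraries. The Gdf11 promoter, chr10:128891719-128891968 on the minus strand, belongs to a gene marked at E14 only, whose peaks did not reach these bases. The Id4 promoter, chr13:48260866-48261115 on the plus strand, belongs to a gene with no peak, whose GENCODE start at 48261228 lies further downstream, and was picked because its CG ratio was the highest among such genes in the table.
Gdf7: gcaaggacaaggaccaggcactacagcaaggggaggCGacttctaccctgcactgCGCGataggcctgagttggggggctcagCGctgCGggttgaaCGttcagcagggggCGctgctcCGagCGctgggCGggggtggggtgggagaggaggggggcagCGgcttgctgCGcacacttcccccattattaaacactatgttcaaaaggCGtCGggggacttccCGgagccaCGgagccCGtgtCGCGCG
Gdf11: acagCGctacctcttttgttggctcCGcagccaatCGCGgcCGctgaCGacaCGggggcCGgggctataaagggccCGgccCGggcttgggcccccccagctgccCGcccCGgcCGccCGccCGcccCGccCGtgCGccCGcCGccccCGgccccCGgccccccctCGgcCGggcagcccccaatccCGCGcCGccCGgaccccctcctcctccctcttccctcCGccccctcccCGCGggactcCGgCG
Id4: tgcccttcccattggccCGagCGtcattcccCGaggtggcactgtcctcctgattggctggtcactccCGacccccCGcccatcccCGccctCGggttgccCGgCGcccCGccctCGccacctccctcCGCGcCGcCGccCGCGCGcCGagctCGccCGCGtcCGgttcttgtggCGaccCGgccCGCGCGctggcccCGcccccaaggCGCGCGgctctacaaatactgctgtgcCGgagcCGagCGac
They held 20, 33 and 35 CG, and the ratio of observed to expected CG was 0.761, 0.886 and 1.05. Of 32851 promoters of that length, 92.1% held at least 1 CG, with a median of 6 and a median ratio of 0.373. The table held promoters of 32 of the 49 genes (65.3%), under the 80% needed, so a comparison of CG content over the set is void and no relation to the peaks is read from these promoters.

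Of 59 other genes of the pathway, chosen by role, 19 were marked at E14 and 12 had a peak in all 4 libraries, beside 19.5% and 12.0% of protein-coding genes. The counts by role rest on few genes and stand beside the same shares. Among 18 other genes grouped here with the receptors, 5 had a peak in all libraries, namely Acvr2b, Hfe2, Tdgf1, Cfc1 and Nrros. The main receptor genes of TGF-beta and BMP signalling, Tgfbr1, Tgfbr2, Bmpr1a and Bmpr2, had no peak in any library, as for 74.1% of protein-coding genes. None of 13 Smad and cofactor genes had a peak in all libraries, and 12 had none in any, beside the same 74.1%. The exception was Foxh1, a partner of Nodal-activated Smads, covered over 3902, 3969, 1190 and 0 bp. Among 8 target genes, Msx1, Msx2 and Hey1 had a peak in all libraries. Msx2, a homeobox target of BMP signalling, was covered over 6001, 6001, 6001 and 5273 bp, close to the values of Gdf7. The matrix-related TGF-beta targets Ccn2, Tgfbi and Acta2 had no peak, again as for 74.1% of protein-coding genes. Of 20 genes grouped here as extracellular modulators, Ltbp4, Tll2, Sost and Vwc2 had a peak in all libraries.

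The cell type on the label was read against marker genes. None of 10 dermal fibroblast genes, Col1a1, Col3a1 and Pdgfra among them, had a peak in any library, as for 74.1% of protein-coding genes. Of 20 markers of other cell types, 5 (25%) had a peak in all 4 libraries, beside 12.0% of protein-coding genes. They were the keratinocyte genes Epcam and Cdh1 of 6, the endothelial gene Kdr of 4, the muscle gene Myod1 of 3 and the neural crest gene Sox10 of 4 melanocyte and Schwann genes, with none of 3 immune genes. The muscle gene Myf5 was marked at E14 only, over 3359 and 463 bp. The 14 others had no peak in any library, and a peak list holds no expression, so these counts do not identify the cells.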

How the data were processed

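The analysis used H3K27me3 ChIP-seq peak lists from wild-type dermal fibroblasts, E14 replicates 1 and 2 and E17 replicates 1 and 2. The authors aligned reads and called broad peaks with a q-value threshold for each library separately, so replicates were not pooled. The submitters' processing notes name Bowtie2 2.3.5.1, SAMtools 1.9, MACS2 2.2.7.1 and deepTools 3.5.1 and the mouse build mm10. The control used for the call is not given in the sources used here. The methods state an equal read depth after subsampling wild-type and knockout samples of the later stage, without making clear whether it covers these libraries. For each peak the authors deposited a fold enrichment, the ratio of signal to local background, with its p-value and q-value, both as −log10. Fold enrichment was ranked only within a list and was not compared between libraries.

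Peaks were set against GENCODE vM21 genes, and no peak ran past a chromosome end of GRCm38. From the lists the presence of a peak, the covered length and the highest percentile were computed within 3000 bp of any start site, with Python 3.11.15, numpy 2.4.6, pandas 2.3.3, samtools 1.23.1 and matplotlib 3.10.9. The scoring was tested on simulated peak lists. The members and gene lists were chosen with earlier results of these data known. Values per library are given for the genes marked at a stage with a mean E14 covered length of at least 1000 bp and for receptors and feedback targets with a peak, and other genes are given by their libraries with a peak. By rule, promoters were shown for the gene with peaks in all libraries and the highest mean percentile, for the gene marked at E14 only with the highest E14 percentile, and for the gene without a peak with the highest CG ratio, among genes in the promoter table. Values of other genes were chosen for mention after they were seen, as was the comparison of peak positions. A further gene is not reported here.

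Nothing in the labels says that replicates came from separate animals or cultures, so the spread between them may be technical. Alternatives were stricter q-value, width and coverage minimums, lists of equal number or covered length, other windows and start sites, the gene body, either replicate, other roles, the replicate number as a block, and leaving out each library.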

Additional observations from a re-analysis of the deposited data

How the results depend on the processing

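Of 107 alternative counts, 97 lay within 1.5 times the reported one. Some of these could not move, such as the count marked at E14 with an E17 library left out, so the tally overstates stability. The 21 genes marked at E14 became 10 in lists of equal covered length. The 15 marked at E17, and the 15 marked in all libraries, each became 8 with peaks of a −log10 q-value of at least 5. The 10 BMP-type ligands marked at both stages became 6 at this threshold. The 6 genes marked at E14 with no E17 peak became 3 at that threshold, namely Lefty2, Chrd and Acvr1c and none of the 6, and became 1 and 0 in lists of equal number and of equal covered length. The 19 genes with shorter covered length in both E17 libraries became 8 in lists of equal covered length and 12 with a window of 1000 bp. The narrow window caps the length, so genes covered throughout it in every library tie. Secreted antagonists marked at E14 rose from 3 to 5 with Lefty1 and Lefty2 counted among them, and receptors marked at E17 fell from 1 to 0 in lists of equal number.

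Leaving out each library in turn gave 21 to 23 genes marked at E14, 15 at E17, 6 to 8 at E14 with no E17 peak, 15 at both stages and 19 to 22 with shorter covered length at E17. No share of all protein-coding genes was taken for these settings, so the counts describe the pathway genes only. With the replicate number as a replicate block, 20 genes were shorter at E17 in both pairs. With the widest peak in place of covered length, 21 were shorter in both E17 libraries. The share of all protein-coding genes was not taken for these alternatives either. The deviations of libraries with the same number correlated at 0.165 over 5675 genes, but with 2 pairs the numbers are shared names only. Depth limits every absence, and its part in the stage difference was not tested beyond the lists of equal size.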

Other observations

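Some pathway genes lie near one another on a chromosome and differed in their peaks. On chromosome 14, Gdf10 spans chr14:33923587-33937983 and Gdf2 spans chr14:33941039-33947198. Gdf10 had a peak in all 4 libraries, and Gdf2 had none in its window, its nearest peaks lying 8528, 15725, 8860 and 15706 bp from the start. On chromosome 10, Inhbe at chr10:127348857-127354411 was marked at E14 and Inhbc at chr10:127356322-127370431 was not, although 303 and 247 bp of the region from 3000 bp upstream of Inhbc to its end were covered in the E14 libraries. On chromosome 1, Lefty2 at chr1:180893108-180899103 had a peak in all libraries and Lefty1 at chr1:180935022-180938400 at E14 only. In each E14 library the percentile was higher at Lefty2, 94.3 and 90.9, than at Lefty1, 90.0 and 75.8.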
